A study of Mus musculus with 7 samples.

Results

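Hox genes encode homeodomain transcription factors that give cells their position along the body axis and along the limb. In the mouse they lie in 4 clusters, HoxA on chromosome 6, HoxB on chromosome 11, HoxC on chromosome 15 and HoxD on chromosome 2. Within a cluster the paralogue number follows the order of the genes along the chromosome: low numbers act towards the head, high numbers towards the tail and, in HoxA and HoxD, towards the tip of the limb. Cultured fibroblasts are known to keep the Hox pattern of the site they came from, and Polycomb complexes are known to hold the unused part of each cluster silent. The genes described here are all table rows named Hoxa, Hoxb, Hoxc or Hoxd plus a number and nothing else, 39 of 29955 gene rows: 11 in HoxA, 10 in HoxB, 9 in HoxC and 9 in HoxD. Paralogue numbers 1 to 3 are called anterior, 4 to 8 central and 9 to 13 posterior.

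RNA was sequenced from mouse embryonic fibroblasts (MEFs) of strain C57BL/6 with 3 genotypes. All 7 libraries lacked p53: 3 carried no other change (p53 ko), 2 also lacked Mdm2 (p53Mdm2 ko) and 2 carried the C462A substitution in the RING domain of Mdm2, the part its ubiquitin ligase activity depends on (p53ko Mdm2 C462A ki, below C462A ki). There was no library with intact p53, and the labels name neither the alleles, the promoters behind them, the embryos nor the part of the embryo the cells came from. The study's title concerns Mdm2, chromatin marks and Polycomb repressor complex 2, without p53. Levels are normalized reads recovered from the deposited log2-like values. They are not divided by gene length, so they are compared between libraries and not between genes.

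Recovered totals ran from 28468283 to 41453822 reads a library. A count of 0 allows up to 3 reads, worth 2.65 to 3.86 normalized reads (counting error only). Mdm2 had 1575 to 2887 and Trp53 687.1 to 1775 normalized reads, so gene totals do not check the genotypes; reads within deleted parts were not examined. The summed level of 10 fibroblast markers was lowest in p53Mdm2 ko replicate 2 (914190) and p53 ko replicate 1 (965947) and reached 2099523 in p53 ko replicate 3. The library labelled p53 ko replicate 1 stood apart: it had 99.1 normalized reads of the fibroblast marker Thy1 against 6592 to 37390 in the other 6 libraries, and 3456 of Col1a2 against 175100 to 547600, while Vim (155400) and Col1a1 (458000) were read as highly as elsewhere. Epcam, Pecam1, Myod1 and Pou5f1, which define epithelial, endothelial, muscle and pluripotent cells, had at most 23.1, 6.01, 0.928 and 1.08 normalized reads in any library. Other genes of these lists were read well: Krt19 reached 1911, Krt18 661.5, Kdr 994 and Des 2388, and Nanog had 54.7 to 91.7. In p53 ko replicate 1 the neural list's Sox2 had 493 against 7.42 to 13.03 elsewhere. Summed mesothelial markers were 12667, 1732 and 3236 in p53 ko replicates 1, 2 and 3, 17129 and 1525 in p53Mdm2 ko replicates 1 and 2, and 3335 and 42149 in C462A ki replicates 1 and 2. Sums were 80.2 to 2461 for blood and macrophage markers, 386 to 2408 for epithelial, 73.5 to 1056 for endothelial, 145.5 to 2393 for skeletal muscle, 401 to 1242 for neural and 97.8 to 274 for pluripotent markers. The part these markers play in the Hox results was not tested, and in bulk RNA fewer cells of a type cannot be told apart from less RNA per cell.

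The stretches before 3 Hox genes are shown because these genes mark the pattern that follows: in p53 ko replicate 1 Hoxd13 was far above the other libraries, its neighbour Hoxd12 below all of them, and Hoxb8 close to silent. Each run is the 250 bases before the RefSeq start (GRCm38.p6, plus strand, 5′ to 3′), with every CG pair in capitals.
Hoxd13, chr2:74667975-74668224: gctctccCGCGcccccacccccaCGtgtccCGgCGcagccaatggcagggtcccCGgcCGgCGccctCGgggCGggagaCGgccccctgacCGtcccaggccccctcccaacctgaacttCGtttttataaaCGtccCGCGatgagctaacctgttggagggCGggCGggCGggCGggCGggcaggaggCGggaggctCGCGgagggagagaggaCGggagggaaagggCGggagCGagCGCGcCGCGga
Hoxd12, chr2:74674763-74675012: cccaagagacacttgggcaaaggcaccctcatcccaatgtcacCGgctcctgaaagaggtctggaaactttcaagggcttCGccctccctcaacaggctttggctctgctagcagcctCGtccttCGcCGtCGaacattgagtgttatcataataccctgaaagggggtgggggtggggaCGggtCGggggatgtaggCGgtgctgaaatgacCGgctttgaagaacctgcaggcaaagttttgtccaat
Hoxb8, chr11:96281655-96281904: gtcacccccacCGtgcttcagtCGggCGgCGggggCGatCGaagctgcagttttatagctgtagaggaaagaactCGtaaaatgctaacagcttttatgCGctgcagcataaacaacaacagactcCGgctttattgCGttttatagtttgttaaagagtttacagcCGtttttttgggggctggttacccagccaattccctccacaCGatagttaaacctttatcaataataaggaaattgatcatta
CG pairs, the sequence feature that many Polycomb-bound promoters are rich in, numbered 31 before Hoxd13, 10 before Hoxd12 and 12 before Hoxb8. RefSeq promoter entries matched 22 of the 39 genes, with 24 windows; their median was 12.5 CG pairs, with a range of 2 to 35, against a median of 6.0 over all 32841 windows of this length. The letters TATAAA, searched on both strands, were in 4 of the 24 Hox windows (16.7%) and in 12.4% of all windows. The window before Hoxd13 holds them (tttataaaCG). That before Hoxb8 holds them too, on the opposite strand, and that before Hoxd12 does not. These are counts of letters only.

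The 4 clusters did not move together across libraries, and p53 ko replicate 1 differed most. Summed over a cluster, HoxB had 126 normalized reads in p53 ko replicate 1 and 2246 to 5834 in the other 6 libraries, and HoxC had 42.7 against 965 to 3464. HoxD had 10010 against 645 to 1952, and HoxA 4781 against 838 to 3391. As shares of all Hox reads of a library, HoxD made up 66.9% in p53 ko replicate 1 and 9.36% to 20.4% elsewhere, while HoxB made up 0.845% against 35.5% to 45.4%. Hoxd13 alone held 53.4% of the Hox reads of that library and between 2.87% and 7.14% in the others. The total over all 39 genes was also the highest there, at 14960 normalized reads, against 13680 in p53 ko replicate 2 and 5086 in C462A ki replicate 1, the lowest.

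**Figure D1:**
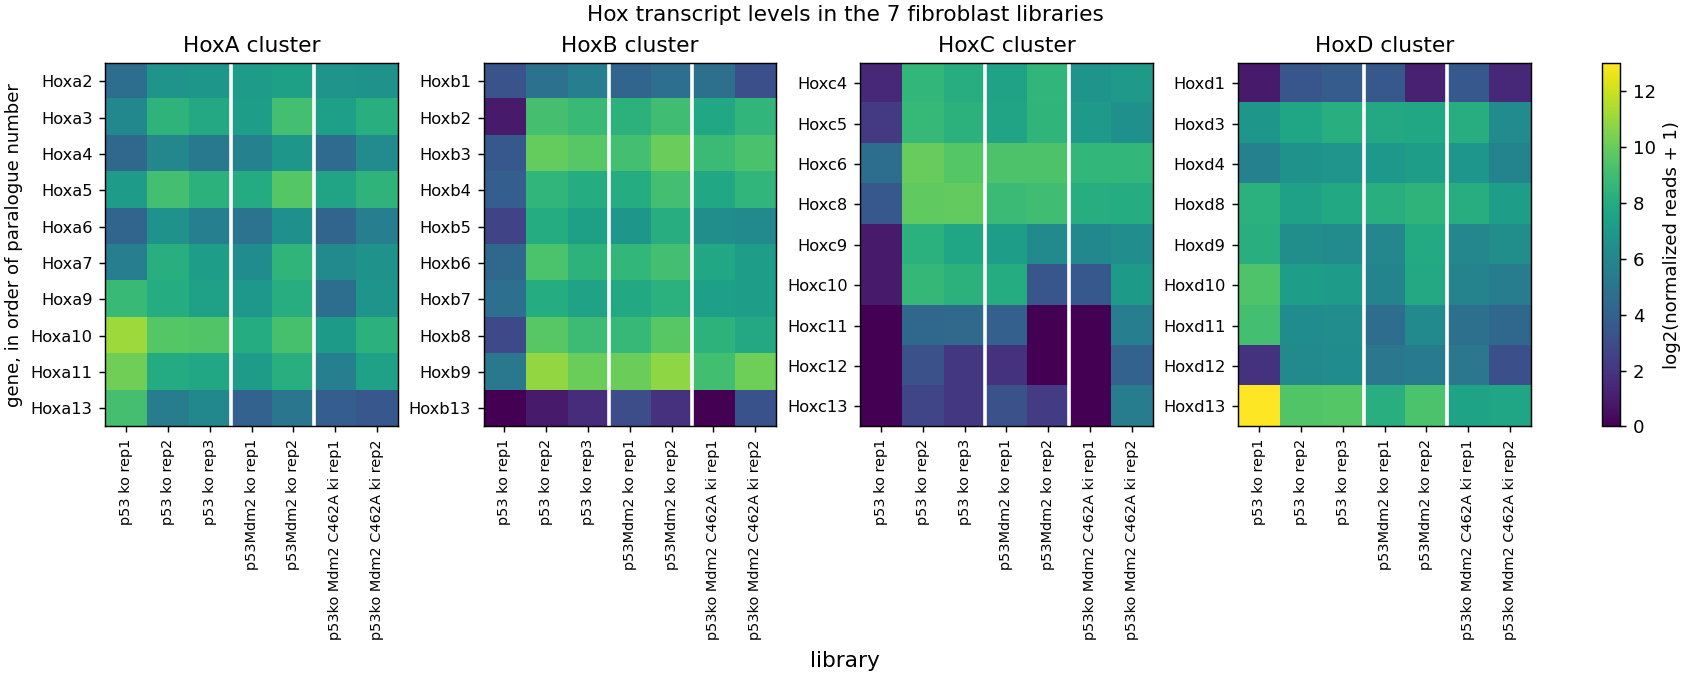
Heat map of log2(normalized reads + 1) for 38 Hox genes (rows, by cluster and paralogue number) in the 7 libraries (columns; white lines separate p53 ko, p53Mdm2 ko and C462A ki). The column of p53 ko replicate 1 is dark throughout HoxB and HoxC and brightest at Hoxd13, where it had 7985 normalized reads.

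Of the 39 genes, 8 were higher in p53 ko replicate 1 than in each of the other 6 libraries. Another 22 were lower than in each, and 9 lay inside their range. The 9 include Hoxb13, Hoxc11, Hoxc12 and Hoxc13, with 0 reads both there and in C462A ki replicate 1. The 22 include Hoxd1, with 1 read there and 1 in p53Mdm2 ko replicate 2. The places of these named genes are not resolved. Of the 35 Hox genes whose mean reached 10 normalized reads, 8 were above and 21 below; over all 16900 genes that reached it, 28.1% were above and 26.4% below. By more than 4-fold outside the range, 4 of the 35 were above and 14 below, against 1.29% and 3.18% of all genes. This describes 1 library and has no replicate.

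The other 6 libraries were each set against the rest in the same way, over the 35 genes and, in brackets, over all genes. A gene has at most 1 lowest library. Since p53 ko replicate 1 was lowest for 21 of the 35 genes (26.4%), fewer were left for the others. p53Mdm2 ko replicate 2 was the highest library for 12 Hox genes (14.5%), 10 of them in HoxA and HoxB, and the lowest for 0 (15.7%). p53 ko replicate 2 was highest for 9 (9.75%), 5 of them in HoxC, and lowest for 0 (9.07%). p53 ko replicate 3 was highest for 4 (9.95%) and lowest for 0 (11.1%), and p53Mdm2 ko replicate 1 was highest for 0 (5.62%) and lowest for 1 (8.25%). C462A ki replicate 1 was highest for 0 (10.9%) and lowest for 6 (7.8%), 5 of them in HoxA. C462A ki replicate 2 was highest for 2 (21.2%) and lowest for 6 (21.3%), 4 of them in HoxD.

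All 8 genes above the range were posterior genes of HoxA and HoxD, which pattern the limb from upper arm to digits. Hoxd13, needed for digit formation, had 7985, 703.5 and 753 normalized reads in p53 ko replicates 1, 2 and 3, 281 and 646 in p53Mdm2 ko and 183 and 198 in C462A ki. Hoxa13, its partner in HoxA, had 581, 43.6 and 65.8 in p53 ko, 15.8 and 33.5 in p53Mdm2 ko and 14.03 and 10.6 in C462A ki. Both were highest by far in p53 ko replicate 1, 17.2-fold above the median of the other 6 libraries for Hoxd13 and 23.6-fold for Hoxa13. Within the remaining libraries, p53 ko replicates 2 and 3 were above both p53Mdm2 ko libraries, and these above C462A ki, for both genes. For Hoxa13 the last step was narrow, with 17 reads in p53Mdm2 ko replicate 1 and 14 in C462A ki replicate 1.

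The size of this difference followed the paralogue number. Hoxa9, Hoxa10 and Hoxa11 were 3.09-fold, 4.82-fold and 5.92-fold above the median of the other 6 libraries, in that order, and Hoxd9, Hoxd10 and Hoxd11 3.56-fold, 6.84-fold and 11.4-fold. Hoxa10, which acts in the upper limb and the uterus, had 2213, 756.5 and 720.5 normalized reads in p53 ko, 262 and 596 in p53Mdm2 ko and 135 and 323 in C462A ki. Hoxa11, which patterns the forearm, had 1167, 253 and 221 in p53 ko, 141 and 283 in p53Mdm2 ko and 47.1 and 173 in C462A ki. Hoxd11, which acts with it, had 556 in p53 ko replicate 1 and 19.4 to 80.9 in the other libraries. The groups of Hoxa11 overlapped between p53 ko and p53Mdm2 ko, and C462A ki replicate 1 was lowest for Hoxa9, Hoxa10 and Hoxa11.

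Hoxd12 broke this order. It lies between Hoxd11 and Hoxd13, yet it had 2.73 normalized reads in p53 ko replicate 1 (3 reads) against 72.4 and 77.7 in p53 ko replicates 2 and 3, 34.3 and 41.2 in p53Mdm2 ko and 34.1 and 7.94 in C462A ki. It was the 1 posterior HoxD gene below the range of the other libraries. Beyond the clusters, Evx2, the homeobox gene next to Hoxd13, had 92.7 normalized reads in p53 ko replicate 1 and 2.01 to 7.55 elsewhere, and Evx1, beside Hoxa13, was at 0 in all 7 libraries.

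**Figure D2:**
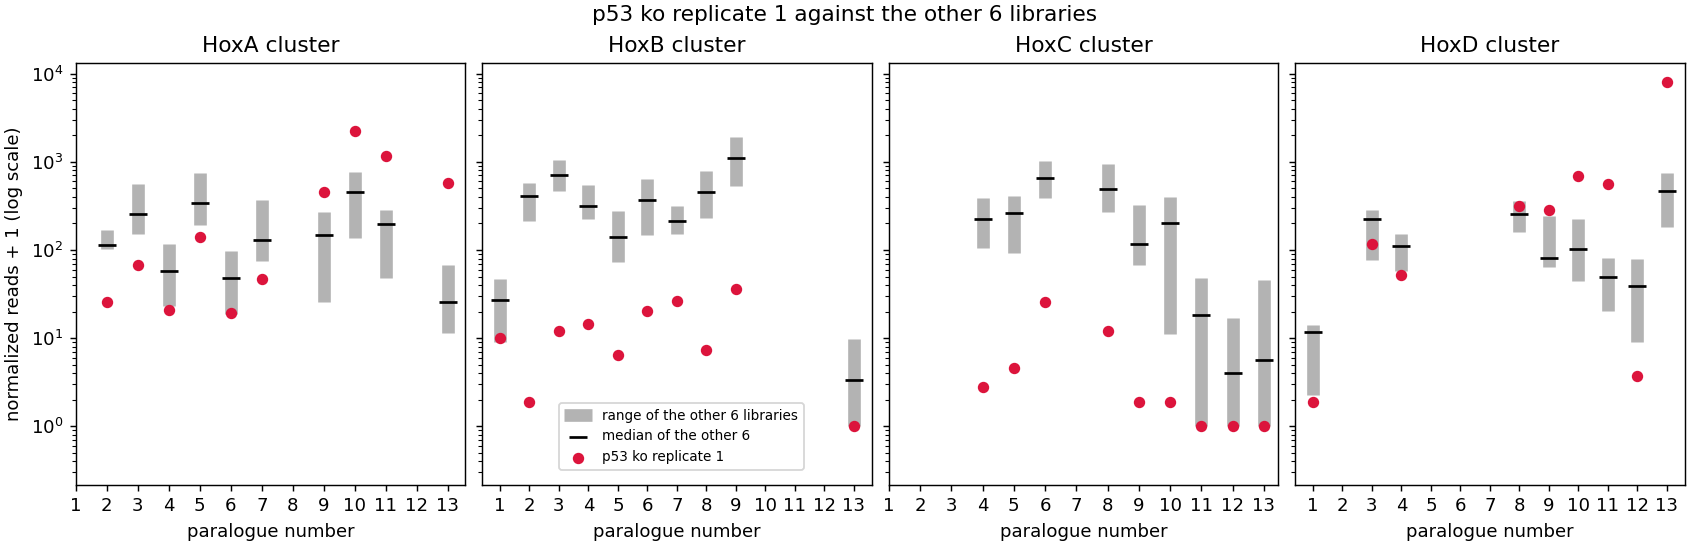
Normalized reads plus 1 (log axis) by paralogue number in each cluster. Red points are p53 ko replicate 1, gray bars the range and black ticks the median of the other 6 libraries; red points lie above the bars at numbers 9 to 13 of HoxA and HoxD except Hoxd12, and below them for 8 of 10 HoxB genes and 6 of 9 HoxC genes.

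HoxB genes, which act from the hindbrain through the trunk, were low in p53 ko replicate 1 at 8 of 10 positions. Hoxb9 had 35.5, 1891 and 1065 normalized reads in p53 ko replicates 1, 2 and 3, 1094 and 1764 in p53Mdm2 ko and 525 and 1140 in C462A ki. Hoxb3 had 10.9, 968 and 782 in p53 ko, 546.5 and 1056 in p53Mdm2 ko and 469 and 622 in C462A ki. Hoxb8 had 6.36, 777 and 473.5 in p53 ko, 423 and 784 in p53Mdm2 ko and 333 and 227.5 in C462A ki. Among genes with more than 3 reads there, the deficit against the median of the other 6 libraries ran from 2.91-fold at Hoxb1 to 70.5-fold at Hoxb8. Hoxb2 had a single read in p53 ko replicate 1, against 211 to 579 normalized reads elsewhere. Hoxb1, at an end of the cluster, lay inside the range of the others. Hoxb13, at the other end, had 0 reads in p53 ko replicate 1 and in C462A ki replicate 1. Hoxb13 had at most 8.82 normalized reads in any library, so its place is not resolved.

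HoxC, which also patterns trunk and hindlimb, showed the same low level in that library. Hoxc6, a thoracic gene, had 24.5, 1012 and 763 normalized reads in p53 ko replicates 1, 2 and 3, 655 and 671 in p53Mdm2 ko and 384 and 395 in C462A ki. Hoxc8 had 10.9, 904 and 949 in p53 ko, 462.1 and 512 in p53Mdm2 ko and 272 and 266 in C462A ki. Hoxc5 had 3.64, 411 and 326 in p53 ko, 195 and 367 in p53Mdm2 ko and 128 and 90.8 in C462A ki. For each of these genes C462A ki lay below p53Mdm2 ko and above p53 ko replicate 1. Of the 9 HoxC genes, 6 had at most 3 reads in p53 ko replicate 1, and Hoxc11, Hoxc12 and Hoxc13 had 0 reads, which allows up to 2.73 normalized reads.

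Most anterior and central genes of HoxA and HoxD were also lower in p53 ko replicate 1, by smaller folds. Hoxa5, a lung and thoracic gene, had 140, 545 and 330 normalized reads in p53 ko, 252 and 748 in p53Mdm2 ko and 192.5 and 355 in C462A ki. Hoxd3 had 116, 197 and 283 in p53 ko, 227 and 219 in p53Mdm2 ko and 272 and 76.7 in C462A ki. Hoxd8, at the border between the low and the high part of HoxD, had 316, 171 and 236 in p53 ko, 294 and 355 in p53Mdm2 ko and 278 and 157 in C462A ki. The deficit of p53 ko replicate 1 against the median of the other 6 libraries was 2.45-fold to 4.55-fold over Hoxa2 to Hoxa7, and Hoxd3 and Hoxd8 lay inside the range of the others. In HoxA the order turned between Hoxa7 (46.4 normalized reads against 74.2 to 366) and Hoxa9 (451 against 25.1 to 269), which are neighbours.

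A different line ran through the posterior end of HoxC and crossed the genotypes. Hoxc10, which acts in the lumbar region and hindlimb, had 0.909, 398 and 330 normalized reads in p53 ko replicates 1, 2 and 3, 263 and 10.3 in p53Mdm2 ko replicates 1 and 2, and 11.03 and 135 in C462A ki replicates 1 and 2. Each genotype thus had a library with at most 11 reads of Hoxc10 and at least 1 with over 100 normalized reads. Its neighbour Hoxc9 was also lowest in the libraries with at most 11 reads of Hoxc10, but the last step was narrow. It had 0.909, 319 and 203 in p53 ko, 151 and 72.1 in p53Mdm2 ko and 66.2 and 82.9 in C462A ki. The ratio of Hoxc10 to Hoxc9 was 0.143 in p53Mdm2 ko replicate 2 and 0.167 in C462A ki replicate 1, and 1.25 to 1.74 in the 4 libraries with high Hoxc10.

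Hoxc11 had the same low libraries, while Hoxc12 was near the floor in most libraries. Hoxc11 had 0 reads in p53 ko replicate 1, p53Mdm2 ko replicate 2 and C462A ki replicate 1, and 19.5, 21.6, 14.8 and 46.7 normalized reads in p53 ko replicates 2 and 3, p53Mdm2 ko replicate 1 and C462A ki replicate 2. Hoxc12 was at 0 in the same 3 libraries and had 2.78 to 15.9 in the other 4. Of these 4, p53 ko replicate 3 and p53Mdm2 ko replicate 1 had only 3 reads each, which a count of 0 also allows. Hoxc12 thus does not separate them from the 3 libraries at 0. Hoxc13, a gene of hair follicles and tail, was highest in C462A ki replicate 2 at 44.98 and had at most 8.35 elsewhere. Hoxc10, Hoxc11, Hoxc12 and Hoxc13, and Pitx1 and Tbx4 below, were chosen for this description after their values were seen. Pitx1, a hindlimb gene, had 0 and 1.29 normalized reads in p53 ko replicate 1 and p53Mdm2 ko replicate 2 and 390 in C462A ki replicate 1. It had 135 to 304 in the libraries with high Hoxc10. Tbx4, also a hindlimb gene, differed: it had 111 and 16.7 in p53 ko replicate 1 and p53Mdm2 ko replicate 2 and 7.02 in C462A ki replicate 1. In the libraries with high Hoxc10, Tbx4 had 41.45 to 198.5. The Y-linked gene Ddx3y had 1501, 1100 and 1699 in p53 ko replicate 2, p53Mdm2 ko replicate 1 and C462A ki replicate 2, all with high Hoxc10, and 1.82 to 7.73 in the other 4 libraries, among them p53 ko replicate 3 with high Hoxc10. The X-linked gene Xist had 42380, 55500 and 38330 normalized reads in p53 ko replicate 3, p53Mdm2 ko replicate 2 and C462A ki replicate 1. In p53 ko replicate 1, also low in Ddx3y, Xist had 2517. Among the libraries with high Ddx3y, Xist had 2492 in p53Mdm2 ko replicate 1. It had 60.33 and 89.96 in p53 ko replicate 2 and C462A ki replicate 2. Ddx3y and Xist thus did not sort the libraries alike. The part of sex in these values was not tested.

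**Figure D3:**
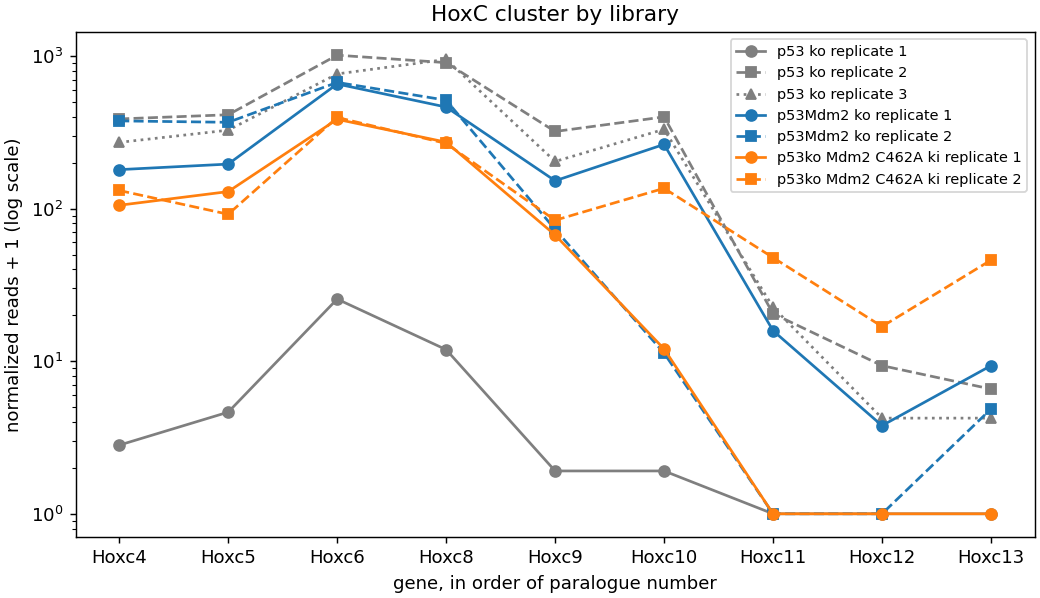
Normalized reads plus 1 (log axis) of the 9 HoxC genes in order, 1 line per library, colored by genotype. From Hoxc9 to Hoxc10 the lines of p53Mdm2 ko replicate 2 and C462A ki replicate 1 drop to 10.3 and 11.03 normalized reads, while those of 4 libraries rise, and p53 ko replicate 1 is low throughout.

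Some values need care because genes overlap. In RefSeq, 14 of the 39 genes overlap another Hox entry: Hoxa3 spans Hoxa4, Hoxa5 and Hoxa6, Hoxb3 overlaps Hoxb4, Hoxd3 overlaps Hoxd4 and Hoxd10 overlaps Hoxd11, so reads of these pairs may be shared. Hoxa11 has an antisense partner, listed as Hoxa11as, with 1689 normalized reads in p53 ko replicate 1 and 40.1 to 252.5 elsewhere. With the strand setting unstated, Hoxa11 and Hoxa11as reads cannot be told apart.

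The first comparison, p53Mdm2 ko against p53 ko, addresses the loss of Mdm2 in cells that lack p53. Most Hox genes had higher fitted levels in p53Mdm2 ko, and the posterior ones lower levels, but none passed the test and the order turned with 1 library. Each difference is in units of the deposited log2-like values, from limma on all 16900 genes that passed the filter. Of the 35 Hox genes past it, 25 had a positive difference (48.2% of all genes) and 10 a negative one (51.8%), with a median of 0.53 against -0.01 over all genes. By position, 15 of 15 central genes and 6 of 7 anterior genes were on the positive side and 9 of 13 posterior genes on the negative side. The 4 genes left out were Hoxb13, Hoxc12, Hoxc13 and Hoxd1.

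Under limma, 0 of the 35 Hox genes had an adjusted p under 0.05 (0% of all genes), 0 had an unadjusted p under 0.05 (1.51% of all genes higher and 1.49% lower), and voom gave the same counts (2.9% of all genes unadjusted). Groups did not overlap for 2 genes on the higher side (8.99% of all genes), Hoxa2 and Hoxd4, and for 4 on the lower side (9.2%), Hoxa10, Hoxa13, Hoxd11 and Hoxd13. The log2 difference was -1.88 for Hoxd13 (SE 1.06; adjusted p = 1 in limma), for Hoxa13 -1.83 (SE 0.944) and for Hoxd11 -1.53 (SE 0.829). Without p53 ko replicate 1 these were -0.74, -0.81 and -0.69 (limma adjusted p = 0.999 for each), and the median over the 35 genes turned to -0.22 with 25 of them negative (51.1% of all genes) and 10 positive (48.9%). Groups then did not overlap for 3 genes on the higher side (17.6%) and 11 on the lower side (18.5%). In that fit 7 of 7 HoxC genes and 12 of 13 posterior genes were on the lower side, and 3 genes had an unadjusted p under 0.05, all lower (2.91% of all genes; 1.73% were higher). Hoxc8 was among them, at -0.90 (SE 0.188, limma adjusted p = 0.785), but with all 7 libraries it was at 0.80 (SE 1.51, limma adjusted p = 1), so its direction turned with that library.

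The comparison of C462A ki with p53 ko asks what the RING substitution does in the same background, and it shares the 3 p53 ko libraries with the comparison above. Posterior HoxA and HoxD genes had lower levels in C462A ki whether or not p53 ko replicate 1 was kept, and no Hox gene passed the adjusted test. Of the 35 genes, 22 had a negative difference (48.8% of all genes) and 13 a positive one (51.2%), with a median of -0.12 against 0.01 over all genes. Under limma 0 had an adjusted p under 0.05 (0% of all genes) and 6 an unadjusted p under 0.05, all lower (5.44%; 4.98% were higher); voom gave 0 and 2, the latter against 10.5% of all genes. Those with groups that did not overlap were 7, all lower (14.4%; 14.1% higher): Hoxa9, Hoxa10, Hoxa11, Hoxa13, Hoxd10, Hoxd11 and Hoxd13. The log2 difference was -2.97 for Hoxd13 (SE 1.06; adjusted p = 0.452 in limma), for Hoxa13 -2.34 (SE 0.944, limma adjusted p = 0.472) and for Hoxa10 -2.24 (SE 0.638, limma adjusted p = 0.437). The medians were -2.13 for the 4 posterior HoxA genes and -2.01 for the 5 posterior HoxD genes, against 0.45 for the 3 anterior HoxA genes and 0.52 for HoxB.

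Without p53 ko replicate 1, most Hox genes of all 4 clusters were on the lower side. Then 33 of 35 genes were negative (49.8% of all genes) and 2 positive (50.2%), at a median of -1.09, and 24 had groups that did not overlap, all lower (24.5%; 23.9% higher). Unadjusted p-values under 0.05 numbered 14, all lower (6.61%; 5.15% higher), and 0 passed after adjustment. HoxC carried the lowest median of the 4 clusters, -1.56, with -0.77 for HoxB, -0.88 for HoxA and -0.95 for HoxD. Hoxc8, at -1.71 (SE 0.188, limma adjusted p = 0.195), had the smallest adjusted p of these genes; with all 7 libraries it was at -0.01 (SE 1.51, limma adjusted p = 0.998). Hoxd13 was at -1.83 (SE 0.387, limma adjusted p = 0.333), Hoxa10 at -1.72 (SE 0.507, limma adjusted p = 0.384) and Hoxa13 at -1.32 (SE 0.328, limma adjusted p = 0.372). Hoxd8 was not on the lower side, at 0.05 (SE 0.334, limma adjusted p = 0.962), against -0.15 (SE 0.353, limma adjusted p = 0.915) with all 7 libraries.

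**Figure D4:**
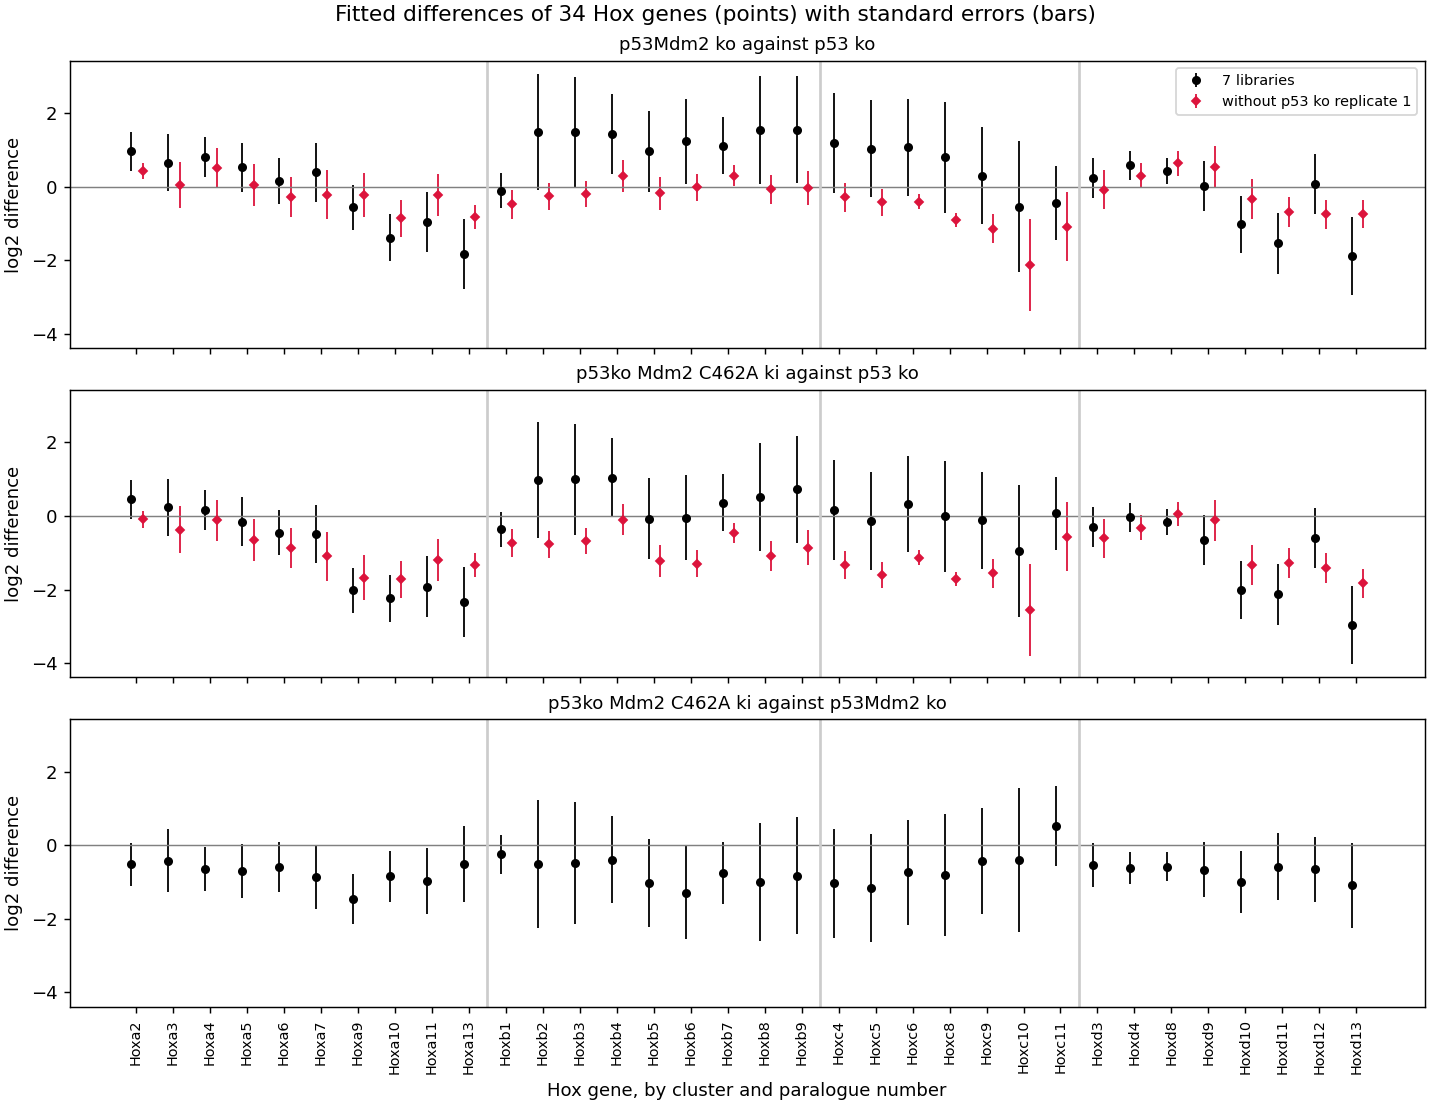
Fitted log2 differences of 34 Hox genes past the filter, by cluster and paralogue number, with bars for the standard error; black circles use all 7 libraries and red diamonds leave out p53 ko replicate 1. In the middle panel red diamonds lie below 0 for 33 genes, and in the lower panel 33 black circles lie below 0.

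The comparison of C462A ki with p53Mdm2 ko asks whether substitution and loss of Mdm2 differ, and it does not use the p53 ko libraries except for their part in the estimate of spread. Hox levels were lower in C462A ki across all 4 clusters, by small amounts that did not pass the test. Of the 35 genes, 33 were negative (48.3% of all genes) and 2 positive (51.7%), with a median of -0.66 against 0.01 over all genes. Cluster medians lay close together, at -0.65 for HoxA, -0.76 for HoxB, -0.74 for HoxC and -0.64 for HoxD. Groups did not overlap for 16 genes, all lower (17.1% of all genes; 15.8% higher). Under limma 0 of the 35 genes had an adjusted p under 0.05 (0%), 0 had an unadjusted p under 0.05 (1.2% of all genes higher and 1.78% lower), and voom gave the same counts (2.59% of all genes unadjusted).

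Hoxa9 had the largest difference of these genes without overlap, at -1.46 (SE 0.671, limma adjusted p = 1). It had 25.1 and 104 normalized reads in C462A ki against 120 and 269 in p53Mdm2 ko. Hoxb6, a thoracic gene, had 213.5 and 148 against 395 and 545, a log2 difference of -1.29 (SE 1.26), and Hoxc5 of -1.17 (SE 1.46). The adjusted p was 1 for both in limma. The shared estimate of spread includes p53 ko replicate 1; without that library 8 of the 35 genes had an unadjusted p under 0.05 (5.48% of all genes) and 0 an adjusted one. When either p53Mdm2 ko library was left out, the median was -1.12 without replicate 1 and -0.45 without replicate 2, with 32 and 29 of 35 genes negative. Without C462A ki replicate 1 or 2 it was -0.68 or -0.83.

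Genes that work with or around the Hox clusters gave no call in any of the 3 comparisons. Nor did any other gene tested (0% of all genes), and the adjusted counts of all lists below compare to that share. Of 9 cofactor genes, whose proteins bind DNA together with Hox proteins, 0 passed in limma's adjusted test. Higher than in p53 ko were 5 in p53Mdm2 ko (48.2% of all genes) and 5 in C462A ki (51.2%). An unadjusted p under 0.05 was reached by 0 and 1 of them, against 3% and 10.4% of all genes in these comparisons, the shares to which the unadjusted counts of the lists below also compare. The cofactor Meis1 had 263, 1075 and 1110 normalized reads in p53 ko, 1185 and 821 in p53Mdm2 ko and 1039 and 1737 in C462A ki, lowest in p53 ko replicate 1. Meis2, a related cofactor, had 684 there and 1194 to 2584 elsewhere.

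Of 16 upstream regulators past the filter, 0 passed the adjusted test in any comparison. Lower than in p53 ko were 13 in p53Mdm2 ko (51.8% of all genes) and 10 in C462A ki (48.8%). At an unadjusted p under 0.05 there were 0 and 1. Among retinoic acid genes, which set Hox borders in the embryo, Cyp26b1, which breaks down retinoic acid, had 3863 normalized reads in p53 ko replicate 1 against 146 to 875 elsewhere. Crabp1, which binds it, had 45.5 against 1120 to 36440. Of the 17 Polycomb genes 0 passed either, with 12 lower in p53Mdm2 ko (51.8% of all genes) and 10 lower in C462A ki (48.8%). Those at an unadjusted p under 0.05 were 0 and 1. Ezh2 is the methyltransferase of Polycomb repressor complex 2. It had 2171, 1980 and 1761 in p53 ko, 1632 and 2397 in p53Mdm2 ko and 1444 and 1066 in C462A ki. p53 ko and p53Mdm2 ko thus overlapped and C462A ki lay below both. Of all genes, 14.4% were lower without overlap in C462A ki than in p53 ko, and 17.1% than in p53Mdm2 ko.

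Of 14 flanking genes past the filter, 4 lay above and 3 below all other libraries in p53 ko replicate 1, near the shares of all genes (28.1% and 26.4%). Mtx2, on the Hoxd1 side of HoxD, had 1573 normalized reads there and 1507 to 1677 elsewhere, and Skap2, near HoxA, 846 against 767 to 1265. Of these 14 genes, 0 passed the adjusted test of limma in any comparison, and 1 (p53Mdm2 ko) and 5 (C462A ki) had an unadjusted p under 0.05 against p53 ko (3% and 10.4% of all genes). Of 28 other positional genes past the filter, 14 lay below (26.4% of all genes) and 7 above (28.1%) all other libraries in p53 ko replicate 1. Tbx5, a forelimb gene, had 1931 there against 124 to 314, and the limb genes Lhx2 and Lmx1b had 1565 against 3.53 to 37.8 and 533 against 20.3 to 99.1. Shox2, which acts in the upper limb, had 20.0 against 751 to 2515, and Zic1 14.5 against 210 to 732. Genotype differences gave 0 calls among these 28 in limma's adjusted test, with 1 and 2 at an unadjusted p under 0.05 (3% and 10.4% of all genes). Genes named in this paragraph, Ezh2 and the retinoic acid genes above were picked after their values were seen.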

How the data were processed

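RNA of 7 fibroblast libraries was sequenced; groups and replicate numbers come from the sample titles. The submitters' processing notes name CASAVA 1.8.2, Bowtie2 2.1.0, DESeq 1.14.0 and mm9 without roles; no source used here gives the counting tool, annotation or strand setting. The deposited values are on a log2-like variance-stabilized scale, where a gene without reads has 3.36 in all columns. Inverting the transformation from that value gave normalized reads, and a step per library gave whole reads (100% of values within 0.05 of a whole number). Limma 3.58.1 (R 4.3.3) was fitted to the deposited log2 values with a mean-variance trend, all 7 libraries and 4 residual degrees of freedom, over 16900 genes with a mean of at least 10 normalized reads. Tests were two-sided, with Benjamini-Hochberg adjustment over all of them and a threshold of 0.05. Count models were not run because the deposited values are not counts; voom on recovered reads was an alternative. The fit was tested on simulated data. No label says that replicates are separate embryos. Y-linked reads differed between libraries of every genotype, so the replicates of a genotype are not all repeats of 1 culture, but which share a source is not given.

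Members, lists and tests were chosen with earlier results of these data known. Every Hox row is counted; 1 of them and 1 cofactor gene are not reported here by name or in figures; values in every library are given for the 3 most-read genes of each cluster, and fitted differences for the 3 largest without overlap in each comparison. Alternatives covered scale, filter, scaling, variance model, weights, replicate block and each library left out. Promoter sequences are RefSeq's; their build differs from mm9, so no coordinates were joined to the data.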

Additional observations from a re-analysis of the deposited data

How the results depend on the processing

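Over the 17 alternatives, all planned, the number of genes called stayed at 0 in each comparison except that, without both p53 ko replicate 1 and C462A ki replicate 2, p53Mdm2 ko against p53 ko gave 1. The median Hox difference of p53Mdm2 ko against p53 ko turned from 0.53 to -0.22 without p53 ko replicate 1, to -0.22 without both libraries and to -0.12 with sample weights; leaving out 1 library at a time it ran from -0.22 to 0.89. For C462A ki against p53 ko it moved from -0.12 to -0.92 with sample weights and to -1.13 without both libraries, and ran from -1.09 (without p53 ko replicate 1) to 0.37 (without p53 ko replicate 2). Its sign also turned, by less than the spread between replicates, to 0.05 by voom and 0.15 with the replicate block, so over all 7 libraries it has no stable direction. For C462A ki against p53Mdm2 ko it stayed negative, from -1.12 to -0.45. The replicate block left all 3 counts of called genes at 0 and gave medians of 0.61, 0.15 and -0.66; the labels do not say that a replicate number marks a shared litter, and deviations of same-numbered libraries correlated between -0.16 and 0.20. The 3 largest log2 differences without overlap in each comparison kept their sign and stayed uncalled under all 17 alternatives. Some other genes changed sign but stayed uncalled: without p53 ko replicate 1, Hoxc8 turned from 0.80 to -0.90 in p53Mdm2 ko against p53 ko, and Hoxd8 from -0.15 to 0.05 in C462A ki against p53 ko. Depth limits Hoxb13, Hoxc11, Hoxc12, Hoxc13 and Hoxd1, which had at most 53 reads in any library.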
